A study of Mus musculus with 8 samples.

Results

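Adhesion G protein-coupled receptors were examined in lymphatic and blood vascular endothelial cells of the mouse colon. The 8 receptor genes described are Adgrg3, Adgrg1, Adgrl1, Adgrl2, Adgrl4, Adgrf5, Adgra2 and Adgre5, 8 of the 18193 genes with a probe set, and all 14 probe sets that name only these genes were taken, of 34945 that name a single gene. The genes were selected on their LEC minus BEC differences in these arrays, which were known, so their differences are given as a description, without a test. In short, Adgrg3 had a high signal in every array of lymphatic endothelial cells and was above background in no array of blood vascular cells. Adgrg1, Adgrl2, Adgrl4, Adgrf5 and Adgre5 were higher in blood vascular cells in all 4 mice, Adgra2 was higher in lymphatic cells in all 4 mice with touching ranges, and Adgrl1 had no direction shared by the mice.

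The study set 4 arrays of lymphatic endothelial cells (LEC), which line the vessels that drain fluid and leukocytes from tissue, against 4 of blood vascular endothelial cells (BEC). Both groups came from the same 4 untreated healthy C57BL/6J mice, 3 female and 1 male, aged 8 weeks. Cells were sorted from digested colon with antibodies to CD31, podoplanin and the leukocyte antigen CD45.2, and the labels do not state the gates. The submitters picked the 4 pairs for the quality of their RNA and amplified material, and total RNA was amplified before it was hybridised to Affymetrix-type probe sets that yield 1 log2 signal each.

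Adhesion G protein-coupled receptors carry a long extracellular part built of adhesion domains, followed by a segment that cuts itself and by the membrane-spanning bundle of a G protein-coupled receptor. Binding of a matrix or cell-surface ligand can expose a tethered peptide that activates the receptor, and many members couple to G12/13. In blood vessels the family is known from ADGRL4 and ADGRF5, which endothelium expresses widely, and from ADGRA2, which brain vessels need to respond to WNT7. ADGRG3 and ADGRE5 are best known from leukocytes.

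RefSeq places several of the members side by side. On mouse chromosome 8, Adgrg1 and Adgrg3 are next to each other among protein-coding genes, and so are Adgre5 and Adgrl1; on chromosome 3, Adgrl2 and Adgrl4 are. The start-site windows of the neighbours Adgrg3 and Adgrg1, whose signals lay on opposite sides, and of the neighbours Adgrl2 and Adgrl4, both higher in BEC, are shown for that reason. Each is the 250 bases before a start site in RefSeq on build GRCm38.p6, in lower case, with GGAA and its reverse complement TTCC, the core bound by ETS factors, in capitals on either strand; these letters do not overlap another searched motif.
Adgrg3, chr8:95017442-95017691, plus strand: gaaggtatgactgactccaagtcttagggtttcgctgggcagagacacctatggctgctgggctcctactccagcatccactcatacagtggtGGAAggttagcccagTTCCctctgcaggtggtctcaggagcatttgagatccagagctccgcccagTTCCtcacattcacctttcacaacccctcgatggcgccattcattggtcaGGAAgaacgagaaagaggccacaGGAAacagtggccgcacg
Adgrg1 first start, chr8:94976859-94977108, plus strand: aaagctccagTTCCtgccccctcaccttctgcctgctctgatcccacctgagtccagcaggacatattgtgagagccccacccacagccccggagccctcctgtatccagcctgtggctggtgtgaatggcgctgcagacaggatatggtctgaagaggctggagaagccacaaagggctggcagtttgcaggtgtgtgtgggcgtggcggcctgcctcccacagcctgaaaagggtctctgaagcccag
Adgrg1 second start, chr8:94984149-94984398, plus strand: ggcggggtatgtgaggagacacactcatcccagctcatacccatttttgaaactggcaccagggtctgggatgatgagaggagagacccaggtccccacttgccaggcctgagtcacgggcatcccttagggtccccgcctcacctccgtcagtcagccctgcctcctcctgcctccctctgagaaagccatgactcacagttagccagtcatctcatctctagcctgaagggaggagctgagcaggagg
Adgrl2, chr3:148954636-148954885, minus strand: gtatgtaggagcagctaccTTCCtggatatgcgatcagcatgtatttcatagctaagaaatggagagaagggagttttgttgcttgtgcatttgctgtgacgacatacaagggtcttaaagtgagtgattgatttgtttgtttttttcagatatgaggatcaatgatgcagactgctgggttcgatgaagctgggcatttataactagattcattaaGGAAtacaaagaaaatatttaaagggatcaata
Adgrl4, chr3:151437632-151437881, plus strand: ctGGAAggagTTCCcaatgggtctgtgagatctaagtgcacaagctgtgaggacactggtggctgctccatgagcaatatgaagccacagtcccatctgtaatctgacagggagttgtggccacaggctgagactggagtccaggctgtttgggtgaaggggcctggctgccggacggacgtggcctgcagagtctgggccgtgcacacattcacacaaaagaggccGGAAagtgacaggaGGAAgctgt
The window of Adgrg3 held 5 matches, a count reached or passed by 18.0% of 32851 mouse windows of that length. Adgrg1 had 1 match before its first start and 0 before its second. Adgrl2 had 2 matches and Adgrl4 had 4. The motif is common, with at least 1 match in 93.4% of all windows and a median of 3, and 6 of the 8 members had a window, 8 windows in all. Of those not printed, the Adgrl1 window held 5 matches, and the Adgrf5 windows held 7 and 5; as many as 7 were found in 3.82% of all windows. A match describes the letters only.

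The arrays were checked against marker genes of the cell types named on the labels. Lymphatic markers had a log2 summed signal between 15.33 and 16.06 in LEC and between 10.82 and 11.50 in BEC. Most of the BEC sum was Flt4, which read 10.73 to 11.42 there, while the other lymphatic markers had BEC means of 3.39 to 5.66. The lymphatic list includes Pdpn, the gene of podoplanin, on which the cells were sorted. Blood vascular markers lay between 7.53 and 10.29 in LEC and between 14.28 and 14.88 in BEC. All 7 markers of endothelium in general were above background on all 8 arrays. All 7 also had the higher mean in BEC, with a summed signal of 13.37 to 14.03 in LEC and 14.29 to 14.88 in BEC. Background was set per array at the 95th percentile of 27 bacterial control probe sets, which was 3.43 to 4.88 on the log2 scale. Other cell types left signal that was uneven between arrays. Epithelial markers were brightest in LEC 3 (13.01), BEC 3 (14.19) and BEC 4 (12.34) and lay between 8.05 and 10.62 in the other arrays. Fibroblast markers were brightest in LEC 2 (12.08) and LEC 4 (12) and lay between 7.10 and 8.97 elsewhere. Mural markers, of pericytes and smooth muscle, were between 7.11 and 8.24 in LEC and between 9.63 and 10.47 in BEC. In sorted bulk RNA, fewer cells of a type and less RNA per cell cannot be told apart.

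ADGRG3, formerly GPR97, is a receptor of granulocytes that has also been linked to the migration of lymphatic endothelial cells. Its single probe set, 1417894_at, read 10.35, 10.43, 10.48 and 10.46 in LEC 1 to 4 and 1.24, -1.49, 2.33 and -0.69 in BEC 1 to 4 on the log2 scale. The LEC arrays lay within a narrow band, and no BEC array was above its background. The means were 10.43 ± 0.06 in LEC and 0.35 ± 1.75 in BEC (SD, n = 4 each). The difference was 10.08 ± 0.88 (LEC minus BEC, SE of the difference of means). With BEC values raised to background, this is at least 106-fold higher in LEC. The gap between the lowest LEC and the highest BEC array was 8.01.

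Since ADGRG3 is a granulocyte receptor, neutrophil markers were read beside it. Of 8 such markers, 6 had a probe set, none of them was above background on all 4 arrays of either group, and 2 were above it on no array. Their summed log2 signal was between 6.04 and 7.11 in LEC and between 4.49 and 6.13 in BEC. Of these 6 genes, 6 had the higher mean in LEC and 0 in BEC. S100a8 was above background on 3 LEC and 0 BEC arrays, Csf3r on 2 LEC and 0 BEC arrays, and Elane on 2 of each. The antigen gene of the leukocyte sort, Ptprc, was above background on 1 LEC array and 2 BEC arrays. Of the 9 leukocyte genes measured, Lyz2 was above background on all 4 LEC arrays and 3 BEC arrays (5.90 ± 0.61 in LEC and 4.14 ± 1.52 in BEC), and Cd68 on 3 LEC and 0 BEC arrays (4.40 ± 0.77 and 3.32 ± 0.75); both were the higher in LEC in 4 of 4 mice. Of those 9 genes, 7 had the higher mean in LEC and 2 in BEC. Csf1r was above background on 1 LEC and 3 BEC arrays (3.63 ± 1.12 in LEC and 4.50 ± 0.72 in BEC). Itgam was above it on 2 LEC and 3 BEC arrays, and Laptm5 on 3 LEC and 4 BEC arrays. The part of myeloid RNA in the Adgrg3 signal was not tested. Without the LEC arrays bright for fibroblast genes or the arrays bright for epithelial genes, the Adgrg3 difference stayed within 9.47 to 10.74, the range over all 17 alternatives.

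ADGRG1, formerly GPR56, binds collagen III and transglutaminase 2 and is known from cortical development and cytotoxic lymphocytes. Probe set 1433485_x_at read 4.35, 6.29, 4.95 and 4.93 in LEC 1 to 4 and 10.08, 10.93, 9.13 and 10.66 in BEC 1 to 4. All BEC arrays were above all LEC arrays, with 3 of the 4 LEC arrays above background. The LEC mean was 5.13 ± 0.82 and the BEC mean 10.20 ± 0.80 (SD, n = 4 each), a difference of -5.07 ± 0.57, or at least 30.7-fold higher in BEC. A separate probe set, 1421118_a_at, read 2.02, 4.58, 4.63 and 4.06 in LEC and 9.13, 9.50, 8.89 and 9.50 in BEC. Its difference was -5.44 ± 0.63, so both probe sets placed Adgrg1 on the BEC side without overlap. The ending _x_at marks probes that can also match other transcripts, which the second set does not carry. Leukocyte markers, which could carry ADGRG1 with them, summed to between 6.69 and 9.66 in LEC and between 6.98 and 8.87 in BEC, ranges that overlap.

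**Figure D1:**
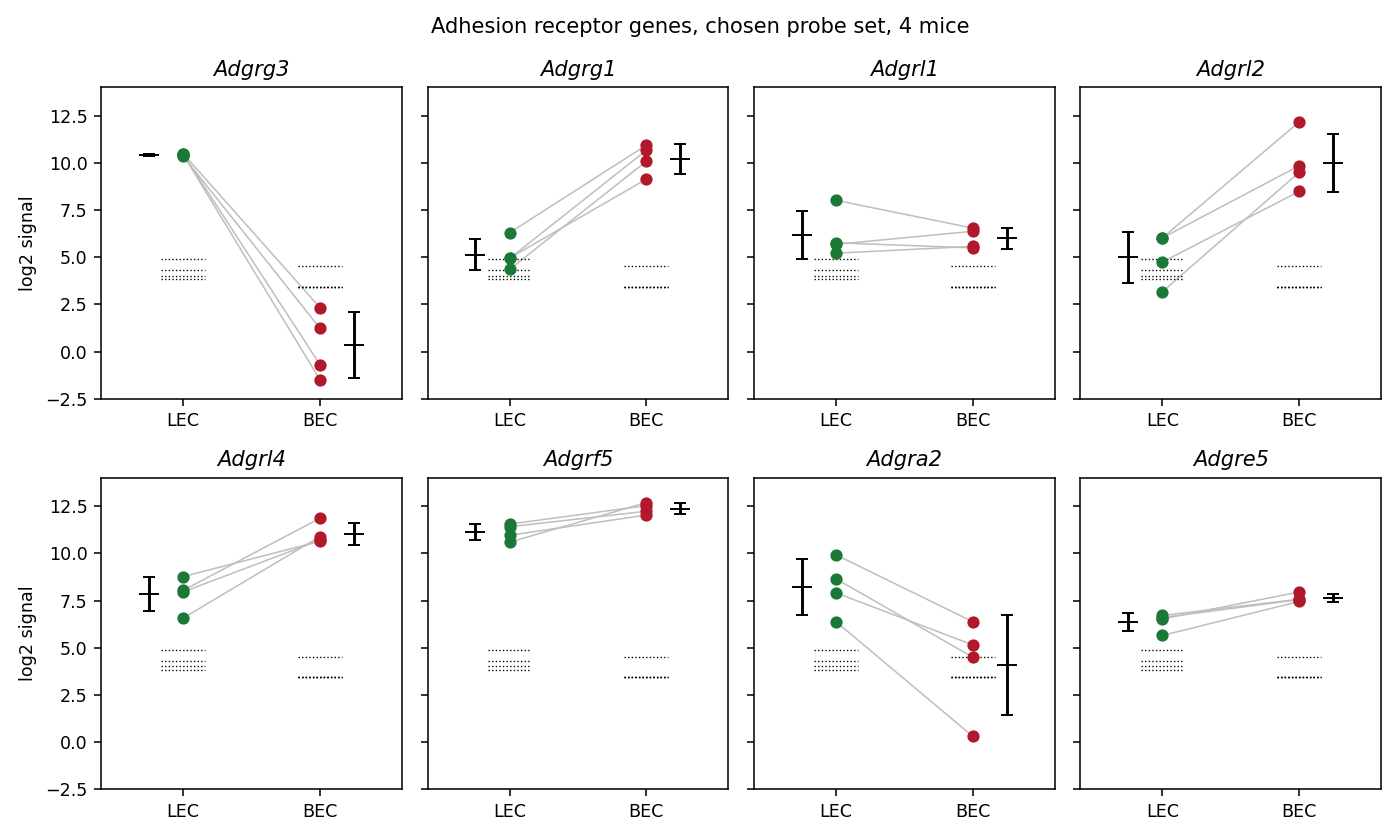
Log2 signal (vertical axis) of the probe set with the highest mean for each of the 8 receptor genes, with LEC in green and BEC in red; grey lines join arrays of a mouse, black bars give the mean ± SD (n = 4), and dotted lines mark the background of each array. Adgrg3 sits near 10.43 in all LEC arrays and under background in BEC, while Adgrl1 lines cross and its groups overlap.

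The latrophilins ADGRL1 and ADGRL2 bind teneurins and FLRT proteins on other cells and were first described as receptors of a spider toxin at nerve endings. For Adgrl1, probe set 1428510_at read 5.21, 8.01, 5.68 and 5.76 in LEC 1 to 4 and 5.57, 6.54, 6.37 and 5.49 in BEC 1 to 4. The groups overlapped, LEC 2 stood highest, and LEC exceeded BEC in 2 of 4 mice. The difference was 0.17 ± 0.68, and its sign was the opposite under 4 of the 17 alternatives. The second probe set, 1452812_at, read 2.42, 5.46, 5.18 and 0.72 in LEC and 6.12, 6.07, 0.48 and 4.10 in BEC, a difference of -0.75 ± 1.75 with overlapping groups. At this spread no direction can be given for Adgrl1.

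Adgrl2 differed from its relative. Probe set 1434111_at read 3.17, 6.02, 4.74 and 6.02 in LEC 1 to 4 and 9.49, 12.16, 8.48 and 9.84 in BEC 1 to 4. All BEC values were above all LEC values, and BEC 2 was the highest. The means were 4.99 ± 1.35 in LEC and 9.99 ± 1.56 in BEC, a difference of -5.00 ± 1.03, or at least 23.9-fold higher in BEC. Without BEC 2 the bound was 14.5-fold. Probe set 1434112_at read 3.45, 5.77, 5.92 and 5.98 in LEC and 8.08, 8.60, 9.02 and 9.58 in BEC, a difference of -3.54 ± 0.69 and at least 9.08-fold. The remaining probe set, 1444906_at, disagreed: it read 3.79, 4.51, 3.88 and 2.95 in LEC and 4.12, 3.71, 4.49 and 4.17 in BEC, near background, with a difference of -0.34 ± 0.36 and overlapping groups. A mean over the 3 probe sets gives -2.96.

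ADGRL4, formerly ELTD1, is an endothelial receptor tied to angiogenesis. Probe set 1418059_at read 7.96, 8.04, 6.57 and 8.77 in LEC 1 to 4 and 10.70, 11.86, 10.89 and 10.64 in BEC 1 to 4. Every array was above background and the groups did not overlap. The means were 7.84 ± 0.92 in LEC and 11.02 ± 0.57 in BEC, a difference of -3.18 ± 0.54, or 9.09-fold higher in BEC. Probe set 1418058_at read 9.11, 7.85, 7.45 and 7.37 in LEC and 10.92, 10.95, 10.92 and 10.64 in BEC, with a difference of -2.91 ± 0.41 and a ratio of 7.54. In LEC the signal was thus lower but measurable in all 4 mice by both probe sets.

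ADGRF5, formerly GPR116, controls lung surfactant and is found in endothelium of many organs. Probe set 1440830_at read 11.55, 11.41, 10.96 and 10.59 in LEC 1 to 4 and 12.53, 12.23, 12.03 and 12.69 in BEC 1 to 4. The groups did not overlap, and all arrays of both groups were far above background. The means were 11.13 ± 0.44 in LEC and 12.37 ± 0.30 in BEC, a difference of -1.24 ± 0.26, or 2.36-fold higher in BEC. Probe set 1440225_at read 10.16, 9.07, 9.43 and 9.06 in LEC and 10.89, 11.07, 11.13 and 11.48 in BEC, with a difference of -1.71 ± 0.29 and a ratio of 3.27.

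ADGRE5, known as CD97, is a leukocyte receptor that binds CD55 and THY1. Its probe set 1418394_a_at read 6.71, 6.60, 5.65 and 6.53 in LEC 1 to 4 and 7.57, 7.55, 7.45 and 7.95 in BEC 1 to 4. The groups did not overlap. The means were 6.37 ± 0.49 in LEC and 7.63 ± 0.22 in BEC, a difference of -1.25 ± 0.27, or 2.39-fold higher in BEC. Cdh5 (-1.18), Tek (-1.28) and Kdr (-1.15), markers of endothelium in general, differed about as much as Adgrf5 and Adgre5. The other markers of that list had smaller differences, from -0.72 to -0.35. The 5 receptors that were higher in BEC shared that side with the summed mural signal described above. Within BEC, by the brightest probe set of each gene, Adgrg1 (9.13), Adgrl2 (8.48), Adgrf5 (12.03) and Adgre5 (7.45) were lowest in BEC 3. Adgrl4 was not lowest there (10.89). By other probe sets, Adgrl2 (1434112_at, 8.08) and Adgrf5 (1440225_at, 10.89) were lowest in BEC 1. BEC 3 had the highest mural sum (10.47) and also the highest epithelial sum (14.19). Its sums for markers of endothelium in general (14.29) and of blood vascular cells (14.28) were the lowest in BEC. Of the 8 mural genes, 5 had the higher mean in BEC and 3 in LEC, and 3 (Acta2, Myh11 and Rgs5) were above background on all BEC arrays. Rgs5 read 9.04 to 10.04 in BEC, whereas Pdgfrb was the higher in LEC in 4 of 4 mice (5.07 against 3.25). The part of mural RNA in their differences was not tested.

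ADGRA2, formerly GPR124, joins RECK at the cell surface to pass WNT7 signals to Frizzled and is needed for vessel growth in the brain. Its probe set 1418379_s_at read 6.38, 8.65, 7.91 and 9.92 in LEC 1 to 4 and 0.31, 4.50, 5.15 and 6.38 in BEC 1 to 4. LEC 1 and BEC 4 met at 6.38, so the groups touched, but within each mouse LEC was the higher. The means were 8.22 ± 1.48 in LEC and 4.08 ± 2.64 in BEC, a difference of 4.13 ± 1.51. This is at least 8.45-fold higher in LEC, and leaving out 1 array at a time moved the bound from 5.69-fold (without LEC 4) to 12.9-fold (without LEC 1).

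The LEC arrays with the most Adgra2, LEC 4 and LEC 2, were those brightest for fibroblast markers, and LEC 1, with the least, was the dimmest for them (7.10). Within BEC the order was another. BEC 4 had the most Adgra2 (6.38) and the dimmest fibroblast markers (7.29), and BEC 1 the least Adgra2 (0.31) with 7.74. Without LEC 2 and LEC 4 the difference was 3.06, without the 3 arrays bright for epithelial markers 5.91, and without BEC 1 it was 2.87. The part of fibroblast RNA in the Adgra2 signal was not tested.

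**Figure D2:**
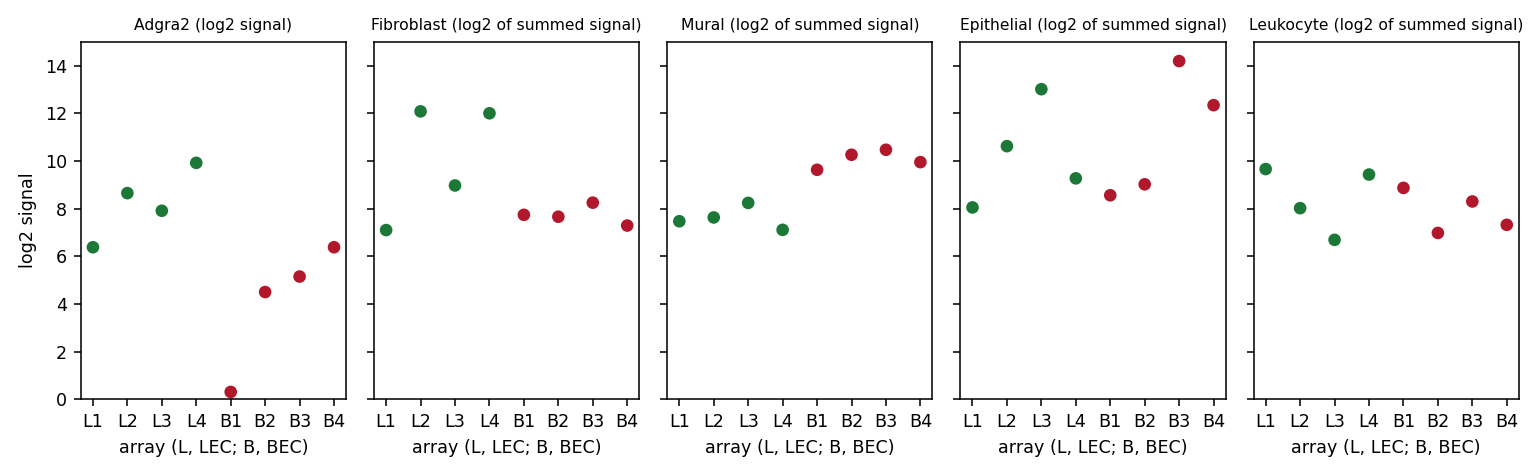
Log2 signal of Adgra2 and log2 of the summed signal of fibroblast, mural, epithelial and leukocyte marker lists (vertical axis) on each of the 8 arrays (horizontal axis; L1 to L4, LEC, green; B1 to B4, BEC, red). Fibroblast signal reaches 12.08 in LEC 2 and 12 in LEC 4, the arrays with the most Adgra2, and mural signal is between 9.63 and 10.47 in BEC. Within BEC, BEC 4 has the most Adgra2 and the lowest fibroblast signal (7.29).

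All 8 receptor genes passed the filter on low signals. With the highest probe set of each gene, LEC and BEC did not overlap for 6 of the 8, of which 1 was higher in LEC and 5 in BEC, against 10.4% of all 13259 genes tested. By limma with Benjamini-Hochberg adjustment at 0.05, 1 of the 8 was among the genes called higher in LEC (1.76% of all tested, 234 genes) and 4 among those called lower (2.31%, 306 genes). With the mouse as a block 2 of the 8 were among those called higher, Adgra2 being added, and Adgrf5 was called in 9 of the 17 alternatives. With array medians made equal, the genome-wide split was 162 higher and 336 lower. Because the genes were chosen with this contrast known, nothing is read from these counts. Of the 14 probe sets, 10 did not overlap between the groups. In the 5 genes with several probe sets, the differences ran from -5.44 to -5.07 for Adgrg1, from -5.00 to -0.34 for Adgrl2, from -3.18 to -2.91 for Adgrl4, from -1.71 to -1.24 for Adgrf5 and from -0.75 to 0.17 for Adgrl1.

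**Figure D3:**
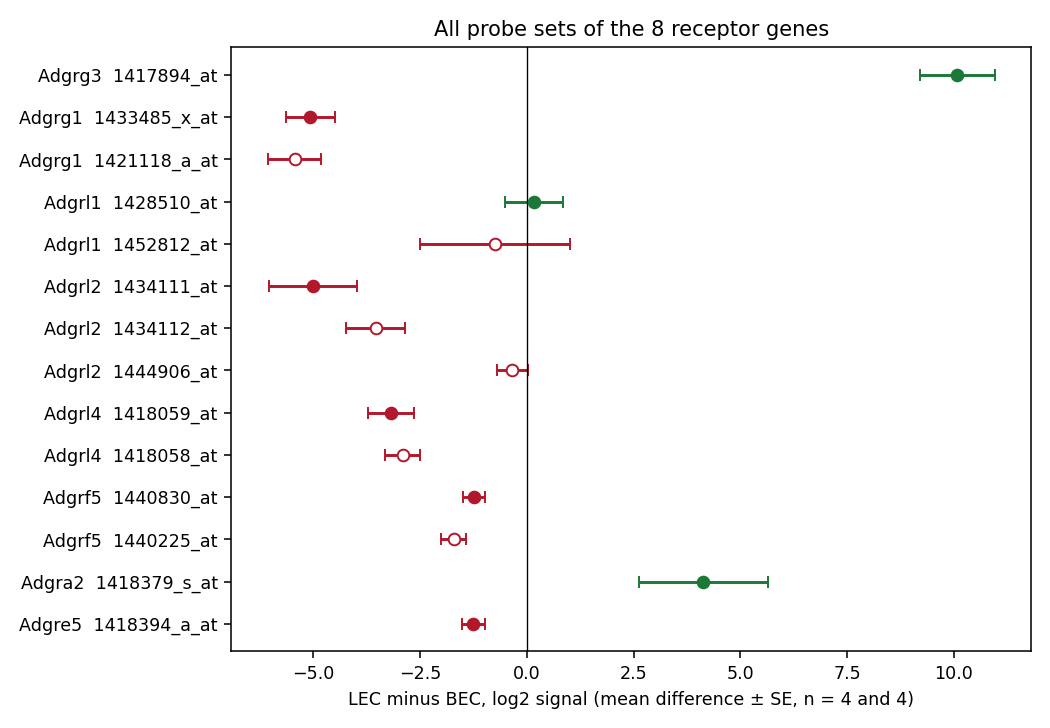
Difference LEC minus BEC in log2 signal (horizontal axis, mean difference ± SE, n = 4 and 4) for each of the 14 probe sets; filled points are the probe set with the highest mean for its gene, green is higher in LEC and red higher in BEC. The probe sets of Adgrg1, Adgrl4 and Adgrf5 lie together, those of Adgrl2 spread from -5.00 to -0.34, and Adgrl1 crosses 0.

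The genes beside the members in the RefSeq order gave few values. Adgrg1 and Adgrg3 are neighbouring coding genes with differences of -5.07 and 10.08, and Adgrl2 and Adgrl4 are neighbours with -5.00 and -3.18. Counting every annotated gene, 2 direct neighbours were tested by limma: Plpbp beside Adgra2, with a difference of -1.45 ± 0.77 (adjusted p = 0.432), and Ddx39a, an RNA helicase beside Adgre5, with -1.83 ± 0.86 (adjusted p = 0.356). Adgrf1, beside Adgrf5, did not pass the filter. Ttll7, a tubulin glutamylase gene on the other side of Adgrl2 among coding genes, was singled out after its values were seen. It read 2.10, 2.37, 0.92 and 2.81 in LEC and 5.16, 7.36, 7.18 and 5.56 in BEC, at least 4.16-fold higher in BEC (limma logFC -4.27 ± 0.87, adjusted p = 0.0122). That call was lost without BEC 2 (0.0690), without BEC 3 (0.0555) and without the epithelial-bright arrays (0.215), with 0.0015 to 0.215 over all 17 alternatives.

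For each member, the genes with the nearest profile over the 8 arrays were found by the mean absolute difference of log2 values after each gene's own mean was removed, among 13258 genes. Adgrg3 lay nearest to Lcn2, which encodes lipocalin 2, at 0.92, and to Mmrn1, a lymphatic marker, at 1.03. Lcn2 read 10.16 ± 0.46 in LEC and 0.76 ± 1.13 in BEC (SD, n = 4 each), again with no BEC array above background. Adgrg1 lay nearest to Scarb1, the HDL receptor gene (0.41), and Tmem182 (0.51), and Adgrl2 to Adgrg1 itself (0.67) and St8sia4, a polysialyltransferase gene (0.71). Adgrl4 was nearest to the laminin gene Lama5 (0.25) and the cadherin gene Fat4 (0.32). Adgrf5 was nearest to Fads2 (0.20) and Snrk (0.21), and Adgre5 to Arhgap31 (0.15) and S1pr1, the receptor of sphingosine 1-phosphate (0.18). Adgra2 was nearest to the transporter gene Slc10a6 (0.57) and Hoxd10 (0.65), and Adgrl1 to Nup43 (0.23) and the cholesterol transporter gene Npc1 (0.25). A gene with small differences comes near to many others by this measure, so the distances do not rank the members.

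Of the other 22 adhesion receptor genes of the mouse, 17 had a probe set and 10 passed the filter. By limma none was called higher or lower, against 1.76% and 2.31% of all genes tested. Of the 10, 2 had an unadjusted p under 0.05, Celsr1 and Adgre1. The median difference of the 10 was 0.70, against 0.08 for all genes tested. Another scaling moves both: with equal array medians the family median was 0.42 and that of all genes -0.20, and under quantile normalization they were 0.30 and -0.01. Of the 10, 6 lay above the median of all genes in the deposited scaling. Adgre1 was the only one of these 10 whose groups did not overlap.

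Celsr1 encodes a cadherin-type receptor of planar cell polarity that is needed for lymphatic valves. It read 9.21, 6.83, 4.59 and 7.95 in LEC 1 to 4 and 0.94, 3.49, 6.39 and 2.69 in BEC 1 to 4. LEC 3 was the lowest LEC array and BEC 3 the highest BEC array, and both were bright for epithelial markers. The limma difference was 3.77 ± 1.20 with an adjusted p of 0.119. It passed the threshold without LEC 3 (adjusted p = 0.0454), without BEC 3 (0.0374) and without the 3 epithelial-bright arrays (0.0327), where the difference was 5.78. Over all 17 alternatives the adjusted p was 0.0327 to 0.384, and the part of epithelial RNA was not tested.

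Adgre1, which encodes a surface antigen of macrophages, read 5.45, 4.97, 4.43 and 4.82 in LEC and 3.58, 3.47, -1.09 and 0.50 in BEC (3.30 ± 1.15, adjusted p = 0.167 by limma). All 4 LEC arrays were a little above background, as was 1 BEC array, while BEC 3 and BEC 4 lay far under it. With values raised to background, Adgre1 was at least 2.3-fold higher in LEC. Adgrl3, the third latrophilin, had 2.51 ± 1.20 (adjusted p = 0.365), and Celsr2 had 2.14 ± 1.25 (0.485). Adgra3, of the same subfamily as Adgra2, had -1.11 ± 0.77 (0.577). Other probe sets of Adgra3 and Celsr2 went the other way, at 0.98 and -0.76, and a second one of Adgrg6 gave -2.86. The values were 1.04 for Adgrd1 (0.802), 0.35 for Adgra1 (0.942), and 0.03 each for Adgrb1 (0.994), Adgrb2 (0.992) and Adgrg6 (0.994), and those of Adgra1, Adgrb1, Adgrb2 and Adgrg6 changed sign under another scaling. Adgrb3, Celsr3, Adgre4, Adgrf1, Adgrf4, Adgrg2 and Adgrv1 did not pass the filter.

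Ligands and surface partners of the members came from a list of 16 genes, of which 14 were tested. Of these, 5 were called higher in LEC and 0 lower, with a median difference of 1.28 against 0.08 for all genes, and 11 were above 0. Over all genes tested, 1.76% were called higher and 2.31% lower. The list was chosen with earlier results of these data known, so nothing is read from its share of calls or its median. The count of 5 was 3 without the epithelial-bright arrays and 1 without the fibroblast-bright arrays. The genes called were Thy1, Flrt3, Flrt2, Cd55 and Nrxn2. No gene of the list was called higher in BEC.

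Thy1 encodes a surface glycoprotein bound by ADGRE5. It read 12.63, 12.60, 12.25 and 12.49 in LEC 1 to 4 and 5.63, 4.24, 3.69 and 2.86 in BEC 1 to 4, at least 303-fold higher in LEC (limma logFC 8.39 ± 0.59, adjusted p = 7.02e-06). Cd55, a complement regulator and the other partner of ADGRE5, read 11.69, 10.86, 11.20 and 11.37 in LEC and 4.10, 9.56, 7.84 and 6.80 in BEC, with BEC 1 far below the other BEC arrays. The LEC signal was at least 17.2-fold above BEC (limma logFC 4.21 ± 0.86, adjusted p = 0.0122), a bound that was 9.28-fold without BEC 1 and 29.7-fold without BEC 2. Its call was lost without an intensity trend (adjusted p = 0.0601), without the epithelial-bright arrays (0.126) and without the fibroblast-bright arrays (0.0883), where the differences were 4.21, 4.48 and 4.37, with 0.00262 to 0.126 over all 17 alternatives. Both partners of ADGRE5 were called higher in LEC, while Adgre5 itself read higher in BEC.

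FLRT proteins are the repeat-rich partners of latrophilins. Flrt2 read 7.88, 8.90, 8.15 and 8.06 in LEC and 1.41, 3.34, 4.99 and 5.72 in BEC, at least 12-fold higher in LEC (limma logFC 4.38 ± 0.89, adjusted p = 0.0116). Flrt3 read 7.04, 6.97, 8.77 and 8.13 in LEC and 4.90, 3.01, 4.00 and 0.95 in BEC, at least 13.8-fold higher in LEC (limma logFC 4.52 ± 0.90, adjusted p = 0.0106). Without LEC 2 and LEC 4, the arrays bright for fibroblast markers, the differences were 4.15 for Flrt2 and 4.69 for Flrt3. The adjusted p in that setting, which has fewer arrays, was 0.122 and 0.0791. The part of fibroblast RNA in these signals was not tested. Without the epithelial-bright arrays Flrt3 had a difference of 3.42 and an adjusted p of 0.161. Over all 17 alternatives it was 0.0027 to 0.122 for Flrt2 and 0.00498 to 0.161 for Flrt3. Nrxn2, a neurexin gene, had a LEC signal at least 4.76-fold above BEC (limma logFC 3.47 ± 0.87, adjusted p = 0.0393), and its call was lost under 13 of 16 alternatives (adjusted p 0.0184 to 0.391, and 0.05, on the threshold, with the mouse as a block). The teneurin Tenm2 had -1.41 ± 1.09 (adjusted p = 0.634) by the probe set with the highest mean, while its other probe sets had differences of 0.98, 2.29 and 3.30, so no direction is given.

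The ADGRG1 partners were read for the same contrast. Col3a1, a collagen gene of fibroblasts, read 7.69, 11.64, 6.80 and 9.83 in LEC and 2.26, 4.36, 6.73 and 6.00 in BEC, a difference of 4.15 ± 1.13 that missed the threshold (adjusted p = 0.0584 by limma). It passed without LEC 3 (0.0289), without BEC 3 (0.0455) and without the epithelial-bright arrays (0.0222), within 0.0222 to 0.429 over all 17 alternatives. LEC 2 and LEC 4, its brightest arrays, are also the ones bright for fibroblast markers. Tgm2, the transglutaminase gene, read 12.81, 12.95, 13 and 12.93 in LEC and 12.56, 11.82, 12.13 and 12.25 in BEC (0.73 ± 0.21, adjusted p = 0.0734). That difference passed the threshold without BEC 1 (0.0488, within 0.0488 to 0.550 over all 17 alternatives). Sftpd, the surfactant protein D gene listed for ADGRF5, did not pass the filter.

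In the WNT7 receptor complex of ADGRA2, 7 of 8 genes were tested, and 1 was called higher in LEC and 0 lower. Over all genes tested, 1.76% were called higher and 2.31% lower. The median of the list was 0.20, against 0.08 for all genes. With equal array medians these were -0.07 and -0.20, and under quantile normalization 0.02 and -0.01. The list was chosen with earlier results of these data known, so nothing is read from its calls or median. Dlg1, a scaffold protein gene whose product binds the tail of ADGRA2, read 11.02, 10.60, 10.20 and 11.33 in LEC and 7.71, 7.01, 6.12 and 8.65 in BEC, 10.7-fold higher in LEC (limma logFC 3.42 ± 0.55, adjusted p = 0.00228, and 0.00154 to 0.0512 over all 17 alternatives). The highest of these was without the fibroblast-bright arrays, where the difference was 3.24. Reck, the partner of ADGRA2, had 0.65 ± 0.75 (adjusted p = 0.771) and Wnt7b 0.82 ± 1.04 (0.801), and Wnt7a did not pass the filter. Fzd4, the Frizzled of the complex in vessels, read 7.34, 11.77, 8.71 and 9.73 in LEC and 10.45, 10.59, 10.95 and 11.64 in BEC (-1.52 ± 0.72, adjusted p = 0.361). Without LEC 2, the array with the most Fzd4, it was called lower in LEC (0.0431), and likewise without LEC 2 and LEC 4 (0.0194), with 0.0194 to 0.863 over all 17 alternatives. A second probe set of Fzd4 gave -1.98 without overlap.

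**Figure D4:**
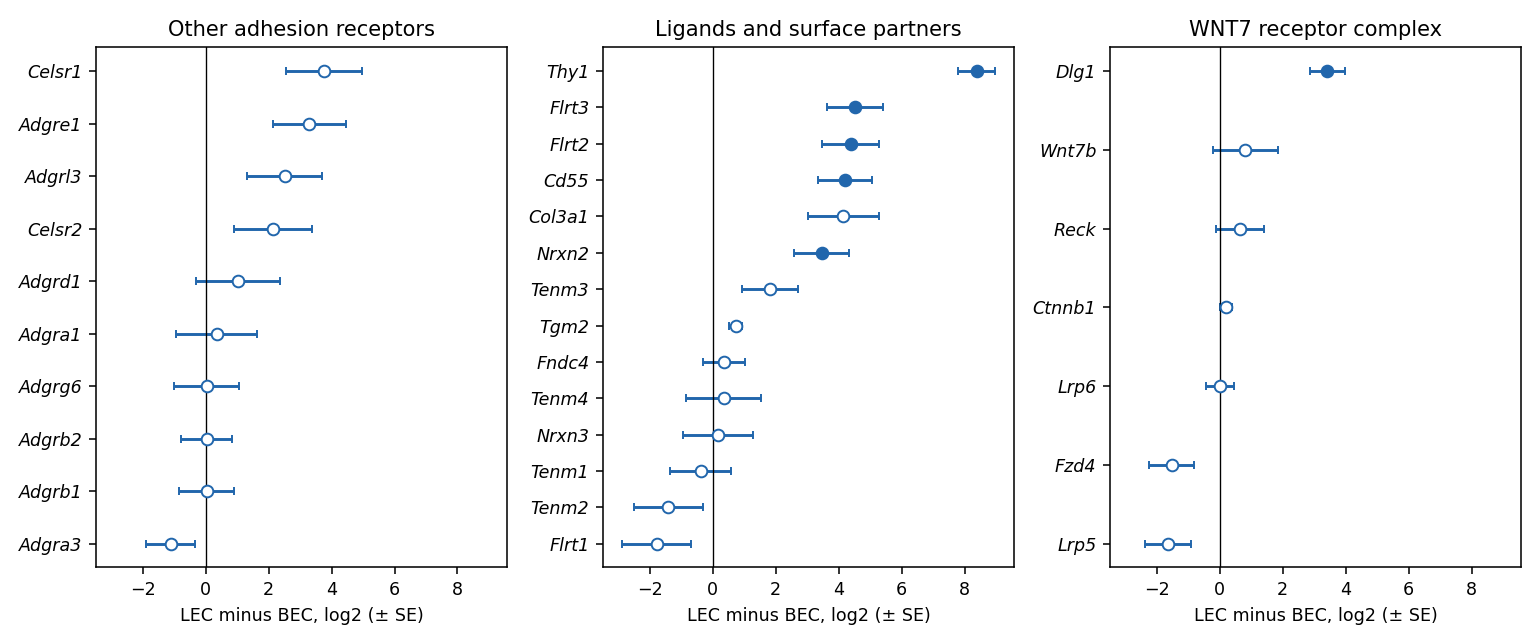
Limma difference LEC minus BEC in log2 signal (horizontal axis, ± SE, n = 4 and 4) for other adhesion receptors, ligands and surface partners, and the WNT7 receptor complex; filled points passed an adjusted p of 0.05. No other receptor is filled, 5 ligand genes and Dlg1 are, and Thy1 stands farthest right at 8.39.

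Genes of the G proteins gave no calls. Of 13 G alpha subunit genes 12 were tested, each by 1 probe set, and 0 were called in either direction. Over all genes tested, 1.76% were called higher and 2.31% lower. The list had 1 unadjusted p under 0.05 (Gna11) and a median of -0.02, against 0.08 for all genes. Gna13, which many adhesion receptors couple to, had 0.34 ± 0.46 (adjusted p = 0.814 by limma). With equal array medians the median of the list was -0.30, against -0.20 for all genes.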

How the data were processed

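Expression of colon LEC and BEC was read from 1 deposited table of log2 signals, 1 column per array (45101 probe sets). MAS5 is named in the submitters' processing notes, with its version and the scanner steps not given in the sources used here. The deposited log2 values were used as given; after trimming 2% the linear signals averaged 100.04 on every array (read from the values), a scaling that assumes equal total signal in both cell types. Array medians were 3.85 to 4.75. Detection calls were not used here, and 8 arrays limit the precision.

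Probe sets were named through the platform annotation, updated to RefSeq symbols by gene number (34741 of 34945 with a single gene; 932 name several genes and 9160 none). A gene was represented by its brightest probe set on average, and 13259 genes remained after requiring signal beyond the 40th percentile in 4 or more arrays. The model was limma 3.58.1 under R 4.3.3 (lmFit, eBayes with an intensity trend, 6 residual and 7.35 prior degrees of freedom), two-sided, with Benjamini-Hochberg adjustment over these 13259 genes, with calls made under 0.05. Where the dimmer group had an array below background, values were raised to background and the ratio is given as "at least". The fit was tested on simulated data.

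Arrays were grouped by title. Replicate numbers mark mice, since the design text pairs LEC and BEC by animal; same-mouse deviations correlated at 0.142, 0.0776, 0.181 and 0.0510 for mice 1 to 4. The main fit leaves the pairing out, since no source states a test.

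The members, gene lists and alternatives were chosen with earlier results of these data known. The text names the 8 members with all their probe sets, the other adhesion receptor genes that passed the filter, called genes of the partner lists with the main partners of each member, direct neighbours in RefSeq order and the 2 nearest profiles. Alternatives were other scalings, filters and probe set rules, the mouse as a block, no trend, each array left out, and, chosen after seeing the marker values, the arrays bright for epithelial or fibroblast genes left out. The result of 1 further gene list is not reported here.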

Additional observations from a re-analysis of the deposited data

Results flagged for a closer look

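Of 80 groups of 4 arrays checked among the named genes, 4 had an array apart from the other arrays of its group by Dixon's criterion, which chance alone meets in about 1 in 20 groups. LEC 1 read 3.45 for Adgrl2 (probe set 1434112_at), where the other LEC arrays read 5.77 to 5.98. BEC 4 read 10.64 for Adgrl4 (1418058_at), against 10.92 to 10.95 in the other BEC arrays, a small step within a tight group. LEC 3 read 5.65 for Adgre5, against 6.53 to 6.71. LEC 1 read 4.98 for Adgra3, against 5.52 to 5.57.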

How the results depend on the processing

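The 8 receptor differences were recomputed under 17 alternatives. Adgrg3 (9.47 to 10.74), Adgrg1 (-5.55 to -4.81), Adgrl2 (-6.04 to -2.96), Adgrl4 (-3.75 to -2.76), Adgrf5 (-1.51 to -1.06), Adgre5 (-1.53 to -0.94) and Adgra2 (2.87 to 5.91) kept their direction under all of them, and Adgrl1 (-0.55 to 0.49) did not. With the mouse as a replicate block, 236 genes were called higher and 298 lower in LEC, against 234 and 306 without it; Nrxn2 had an adjusted p of 0.05, on the threshold, and was not called, Adgra2 joined the called genes (difference 4.13, SE 0.72, against 1.17 without the block), and the block changed no other call among the named genes. Leaving out 1 array at a time gave 156 to 227 genes called higher and 180 to 329 lower (180 without BEC 2, 200 without BEC 4), 0 to 1 other adhesion receptor genes higher, 4 to 5 ligand genes higher and 0 to 1 genes of the WNT7 complex lower. Without the 3 arrays bright for epithelial markers, 112 genes were called higher and 104 lower, 3 ligand genes were called higher, and 1 other adhesion receptor gene, Celsr1, was called higher. Without the 2 arrays bright for fibroblast markers, 88 genes were called higher, 1 ligand gene (Thy1) was called higher, and in the WNT7 complex 0 genes were called higher and 1 lower (Fzd4). These settings leave fewer arrays, and the cause of each change was not tested. Signal over background limits Adgrg3 and Adgra2 in BEC and Adgrg1 and Adgrl2 in LEC, where the ratio is only bounded, and most of the adhesion receptor genes outside the 8.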
